A study of Rattus norvegicus with 9 samples.

Results

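The D-type cyclin genes Ccnd1 and Ccnd2 and the replicative helicase gene Mcm7, are described here in RN46A cells treated with valproic acid or lithium. They were taken by name from the authors' deposited tables and matched by Ensembl identifier (Ccnd1, ENSRNOG00000020918; Ccnd2, ENSRNOG00000057710; Mcm7, ENSRNOG00000001349) to the count table, so they are 3 of its 32662 genes. They were chosen by their fold changes and p-values for VPA against control, in which Ccnd1 and Ccnd2 moved in opposite directions, so their VPA values are a description with no test. RN46A is a rat raphe line with serotonergic features, conditionally immortalised with a temperature-sensitive large T antigen. All groups are this 1 line, grown with the selection drug G418 at 33 °C in 5% serum, and differentiated from confluent cultures for 72 h at 39 °C in 1% serum. The cells were then cultured for a further 72 h with 0.5 mM valproic acid (VPA), with 0.5 mM lithium, or as controls, for which the labels give no concentration. Each group has 3 RNA-seq libraries; whether counting used strand is not stated.

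D-type cyclins are the regulatory partners of the kinases CDK4 and CDK6. In G1 phase these complexes phosphorylate the retinoblastoma protein, which releases E2F transcription factors and the genes they drive. Those genes include subunits of the MCM complex, the ring-shaped helicase that is loaded on DNA at replication origins and unwinds it in S phase. Cyclin D1 and cyclin D2 are encoded by separate genes with different expression across tissues, and in most cells they can stand in for one another. VPA inhibits histone deacetylases, and lithium inhibits glycogen synthase kinase 3, which phosphorylates cyclin D1 protein and marks it for degradation. RNA counts do not measure protein.

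The Mcm7 promoter is shown because E2F factors bind sites of the form TTTCGCGC and Mcm7 is a known E2F target. Of the 3 genes, 1 had an entry in the RefSeq promoter table (rat build GRCr8). The Mcm7 entry is chr12:22163129-22163428 on the minus strand, running from 250 bases before to 50 bases after the gene's start. Capitals mark the matches to TTTNNCGC on either strand.

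Mcm7: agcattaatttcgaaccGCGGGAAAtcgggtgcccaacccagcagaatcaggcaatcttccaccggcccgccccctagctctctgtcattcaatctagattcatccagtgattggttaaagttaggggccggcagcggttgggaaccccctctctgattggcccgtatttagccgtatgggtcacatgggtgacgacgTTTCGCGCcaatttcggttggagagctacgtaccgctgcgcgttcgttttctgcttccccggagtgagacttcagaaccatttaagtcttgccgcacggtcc

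The strict form TTTCGCGC had 1 match, beginning 52 bases before the start, and 0.326% of all 33469 promoter windows held it on either strand. The looser form TTTNNCGC, which takes in the strict one, also matched on the opposite strand, 233 bases before the start; 4.92% of all windows held it. The box CCAAT, searched on both strands, occurred 3 times (37.5% of all windows), and 1 of these shares its first base with the last base of TTTCGCGC. The box GGGCGG had 1 match (33.1% of all windows). TTTCGCGC was also present in the windows of Mcm2, Mcm3, Mcm5 and Mcm6, which encode other subunits of the same ring, so that all 5 subunit genes found in the table held it. The stretches around the match are set out below to compare them, with TTTCGCGC in capitals, or its reverse complement GCGCGAAA for Mcm6; Mcm2 also holds the reverse complement, overlapping the marked match. They lie at chr4:122918090-122918119 (minus strand), chr9:30733715-30733744 (minus), chr19:13488589-13488618 (plus), chr13:42404469-42404498 (minus) and chr12:22163212-22163241 (minus) of GRCr8.
Mcm2: cgtgacccggtTTTCGCGCgaaaacccgtg
Mcm3: acttgggaagtTTTCGCGCcagggaggagt
Mcm5: tagctcagaagTTTCGCGCcaaaacgtccc
Mcm6: gtctgcttttgGCGCGAAAttagcgtgtgg
Mcm7: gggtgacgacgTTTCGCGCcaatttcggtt
Among 149 promoters of listed cell cycle genes, from which only the 3 genes described were left out, 12 (8.05%) held TTTCGCGC. Any other ring subunits on those lists were not taken out. These are matches of letters in a window, not measured binding.

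Reads assigned to genes numbered 9658054 to 12243806 in the VPA libraries, 11207844 to 13030300 in the lithium libraries and 9580591 to 11555704 in the controls. Levels are given as CPM, the count scaled to a fixed library size after TMM correction, where a single count equals 0.0770 to 0.109 CPM. Of 32662 genes, 12719 had enough counts to be tested; Ccnd1 and Mcm7 did so in every group, and Ccnd2 only through the VPA libraries. Separate cultures are not stated for the 3 libraries of a group, so p-values cover the spread among these libraries alone, which may be technical. The RNA is from whole cultures, where fewer cells of a type and less RNA per cell cannot be told apart. Names were held only for genes in the authors' tables of comparisons. Of 14 serotonergic markers, 1 was named and tested, the monoamine oxidase Maob; the others were not analysed here by name.

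Ccnd1, the cyclin D1 gene, was lower with VPA than in control or lithium cultures. It was at 888, 771 and 695 CPM in VPA libraries 1, 2 and 3. Lithium libraries held 1258, 1397 and 1722 CPM, and controls 1385, 1104 and 1782 CPM. All 3 VPA libraries lay below every lithium and control library, while the lithium and control ranges overlapped. VPA and control ranges did not overlap for 25.5% of all genes tested, nor VPA and lithium ranges for 29.2%. The group means were 785 ± 97.5 CPM with VPA, 1459 ± 238 CPM with lithium and 1424 ± 341 CPM in control (SD, n = 3 each). The fitted log2 change was -0.86 ± 0.22 (SE) for VPA over control, a level of 0.551 times control, and -0.89 ± 0.22 for VPA over lithium.

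Ccnd1 varied more between libraries than Mcm7 did. The coefficient of variation of Ccnd1 was 12.4% with VPA, 16.3% with lithium and 23.9% in control. That of Mcm7 was 7.05%, 7.93% and 7.76% in the same groups. Library 3 held the highest Ccnd1 level among the lithium libraries and among the controls, and the lowest among the VPA libraries. Between same-numbered VPA and control libraries, which deviated together over all genes, Ccnd1 differed by -0.64, -0.52 and -1.36 on the log2 scale. The third pair thus differed by more than both other pairs.

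Mcm7, a subunit of the MCM helicase, was lower with VPA by about the same proportion as Ccnd1 and with a smaller spread. It was at 146, 145 and 164 CPM in VPA libraries 1, 2 and 3. The lithium libraries held 270.5, 233 and 265 CPM, and the controls 248, 269.5 and 289.9 CPM. Again all 3 VPA libraries lay below all 6 others, and lithium and control overlapped. Of all genes tested, 25.5% had no overlap between VPA and control and 29.2% none between VPA and lithium. The means were 151 ± 10.7 CPM with VPA, 256 ± 20.3 CPM with lithium and 269 ± 20.9 CPM in control (SD, n = 3 each). The fitted log2 change was -0.83 ± 0.15 for VPA over control, 0.562 times control, and -0.76 ± 0.15 for VPA over lithium. The same-numbered VPA and control libraries differed by -0.77, -0.90 and -0.83. RefSeq also lists a pseudogene, Mcm7-ps1, on another chromosome, and any reads shared with it cannot be told apart here.

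**Figure D1:**
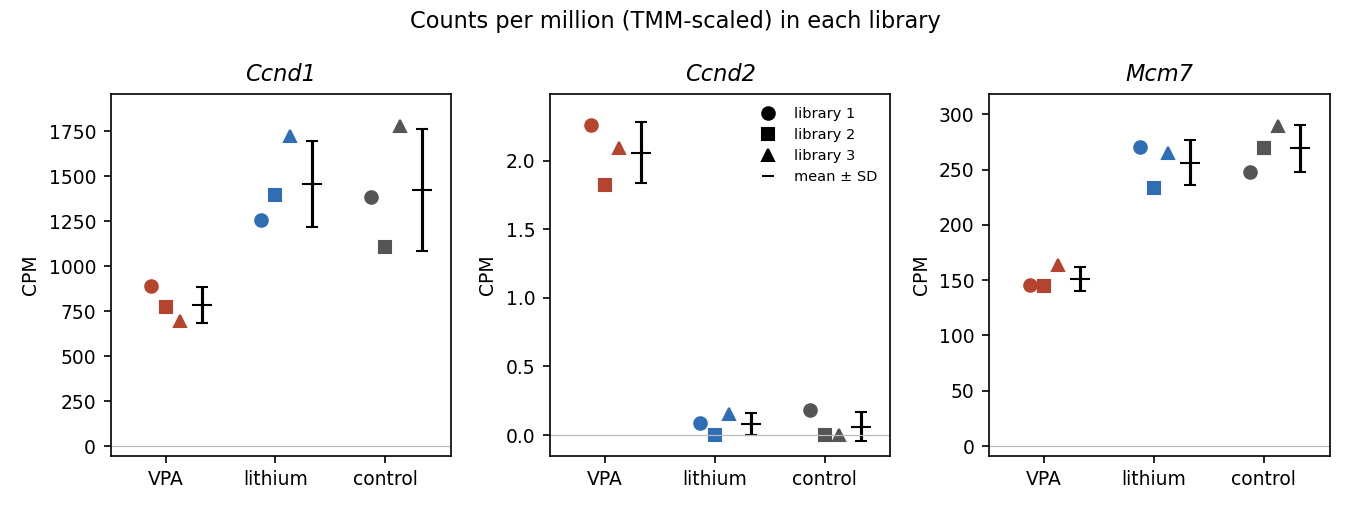
CPM of Ccnd1, Ccnd2 and Mcm7 (vertical axes, linear, each with its own scale) in the 3 VPA, 3 lithium and 3 control libraries, with symbols for library numbers and bars for the mean and SD. The VPA libraries sit apart from all others in each panel, at 695 to 888 CPM for Ccnd1, 1.82 to 2.26 CPM for Ccnd2 and 145 to 164 CPM for Mcm7. Of all genes tested, 25.5% had no overlap between VPA and control and 29.2% none between VPA and lithium.

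Ccnd2, the cyclin D2 gene, was near the limit of detection except with VPA. It had 29, 17 and 26 counts in VPA libraries 1, 2 and 3, equal to 2.26, 1.82 and 2.09 CPM. The lithium libraries held 1, 0 and 2 counts, and the controls 2, 0 and 0. The VPA libraries therefore did not overlap with either other group, as for 25.5% of all genes tested against control and 29.2% against lithium. Every lithium and control library was under 3 counts, a floor of 0.231 to 0.326 CPM per library. Pooled, VPA had 72 counts against 2 in control, a ratio of 32.8 with a 95% exact counting interval of 8.74 to 276. Against the 3 counts with lithium the ratio was 25.0 (8.21 to 124). These intervals, and floors, cover counting error only. Ccnd2 was chosen by its VPA change, and both comparisons use those VPA libraries, so they are a description and no test. Without control 1 the remaining controls hold 0 counts, and VPA was at least 14.2-fold higher, against a floor of 3 counts over the group. Without lithium 3 the ratio to lithium rests on 1 count and was 47.9 (8.32 to 1916). The fitted log2 change of Ccnd2 for VPA over control was 4.80 ± 0.73, which at so few control counts depends on the prior count; it was 7.56 without control 1.

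The 2 cyclin genes moved in opposite directions on very different scales of reads. With VPA, Ccnd1 dropped by 639 CPM relative to control, while Ccnd2 gained 2.00 CPM. The reads of both genes together came to 787 ± 97.6 CPM with VPA, 1459 ± 238 CPM with lithium and 1424 ± 341 CPM in control (SD, n = 3 each), so that the VPA sum was 55.2% of control. Ccnd2 supplied 0.264% of the reads of both genes with VPA (72 of 27302; 95% exact binomial interval 0.206 to 0.332%). It supplied 0.00567% with lithium (3 of 52870; 0.00117 to 0.0166%) and 0.00440% in control (2 of 45493; 0.000532 to 0.0159%). The intervals treat the pooled reads as independent and cover counting error only, not the spread between libraries. The higher VPA share is a description, since Ccnd2 was chosen by its VPA change. These are shares of reads, not of molecules, since the transcript lengths behind the counts were not used here.

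A ratio of the 2 genes within a library needs no scaling between libraries. The log2 ratio of Ccnd2 to Ccnd1 counts, with 0.5 added to each, was -8.59, -8.68 and -8.35 in VPA libraries 1, 2 and 3. Lithium libraries had -13.25, -14.96 and -13.13, and controls -12.58, -14.31 and -15.29. The VPA ratios lay above all others and differed from one another by less than those of the other groups, whose values turn on single counts. The mean difference from control was 5.52 for VPA, a description, and 6.26 without control 1. Controls 2 and 3 held 0 Ccnd2 counts, so the size of this difference depends on the value added. It was 4.79 with 1 added to each count and 7.12 with 0.1 added. Between lithium and control the ratio is set by Ccnd2 counts under the floor and by the 0.5 added, so no difference is read from it.

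**Figure D2:**
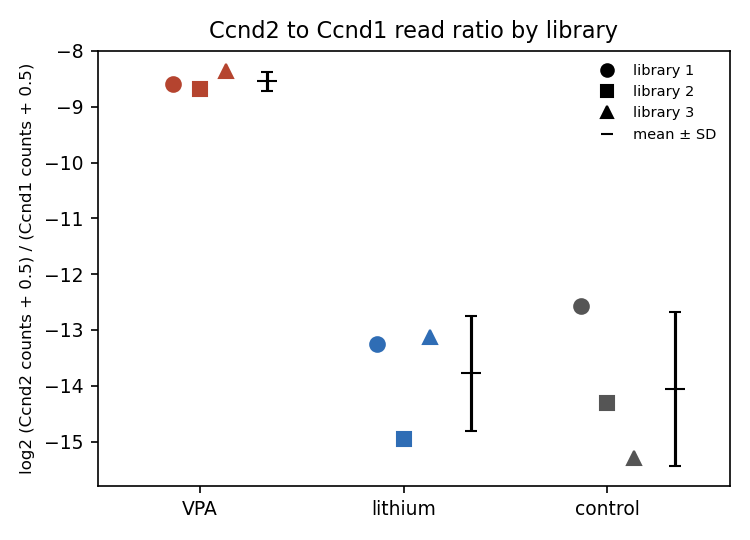
Log2 ratio of Ccnd2 to Ccnd1 counts, with 0.5 added to each count (vertical axis), in each VPA, lithium and control library; bars are the mean and SD of 3 libraries. The VPA libraries lie between -8.68 and -8.35, and the others at -12.58 or lower.

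Levels per length can be set side by side only for Ccnd1 and Mcm7, from the authors' deposited Cufflinks table of 1 FPKM value per group. In that table Ccnd1 was at 148 FPKM with VPA and 303 FPKM in control, and Mcm7 at 53.6 FPKM with VPA and 100.2 FPKM in control. By those FPKM values Ccnd1 stood 2.77 times above Mcm7 with VPA and 3.02 times above it in control. The authors' deposited table places Mcm7 on chromosome 12 from 19306606 to 19314016, and Ccnd1 on chromosome 1 from 218090749 to 218356357. The build is not given in the sources used here. The Ccnd1 locus spans 266 kb, against a median of 23.7 kb over the 1097 loci of that table, of which 37 are as wide or wider, so its FPKM may take in more than the cyclin gene; this was not tested. Ccnd2 has 0 lines in that table.

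The other deposited tables give the same signs from the same libraries. The authors' deposited DESeq2 table, whose log2 values carry 1 decimal, gives -0.8 for Ccnd1, 2.0 for Ccnd2 and -0.8 for Mcm7 for VPA over control. The value for Ccnd2 there is smaller than the fitted 4.80, at a mean normalized count of 11.4. The authors' deposited Salmon and sleuth table gives 1 transcript each for Ccnd1 and Mcm7, at -0.83 ± 0.24 and -0.83 ± 0.20 (SE) after conversion from natural log to log2, and has 0 lines for Ccnd2. None of the 3 genes is among the 137 in the authors' deposited lithium table.

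All 3 genes passed an adjusted p under 0.05 for VPA against control in edgeR's quasi-likelihood test, where 8.7% of the genes tested were called (5.71% higher and 2.99% lower), 22.3% had an unadjusted p under 0.05 and 25.5% had groups that did not overlap. Since that contrast chose the genes, nothing is read from it. With the replicate number as a block, 1741 genes were called in place of 1106. The Ccnd1 call was lost without VPA 1, 2 or 3, control 1 or 3, or lithium 2, with log2 changes of -0.96, -0.85, -0.78, -0.88, -0.66 and -0.86 in that order. The Mcm7 values ran from -0.89 to -0.77 without 1 library. For VPA against lithium, where 7.93% of genes were called (5.61% higher and 2.32% lower), 21.5% had an unadjusted p under 0.05 and 29.2% did not overlap, the same VPA libraries enter. There Mcm7 was called except without VPA 2 (-0.72) or lithium 1 (-0.71), and Ccnd1 except without any 1 of the VPA or lithium libraries (-0.99 to -0.76).

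**Figure D3:**
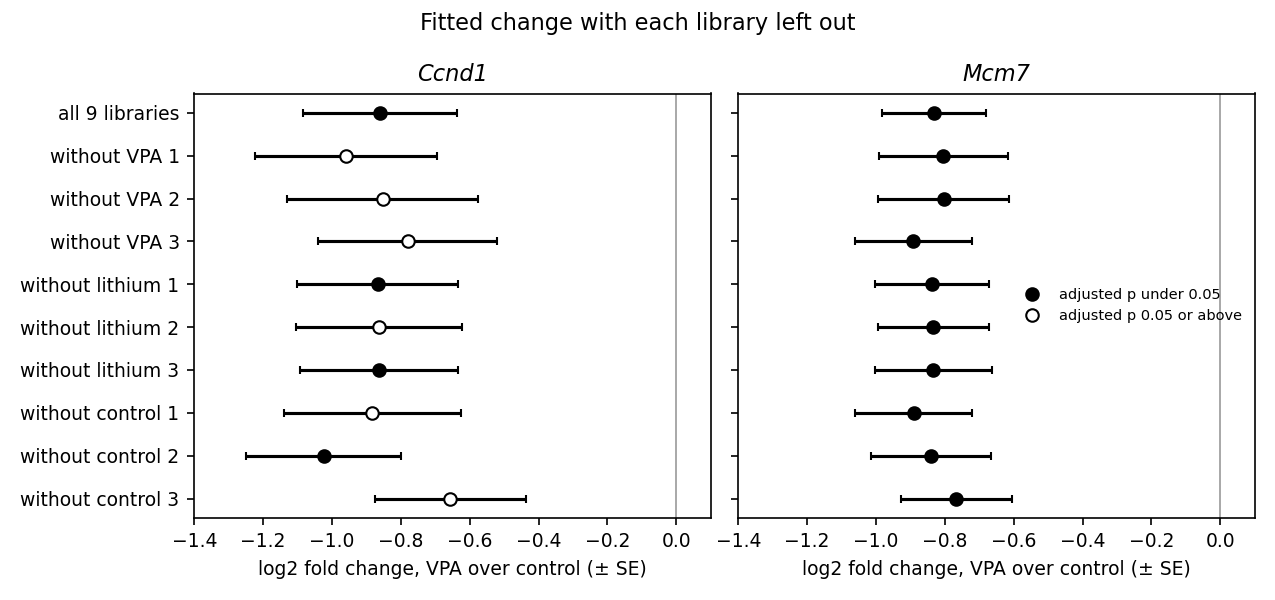
Log2 fold change of Ccnd1 and Mcm7, VPA over control, with its SE (horizontal axis), fitted with all 9 libraries and with each left out in turn; filled points passed an adjusted p under 0.05 over all genes and open ones did not. Mcm7 stays between -0.89 and -0.77, and Ccnd1 runs from -1.02 without control 2 to -0.66 without control 3. This contrast chose the genes, so filled and open points are a description.

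Lithium against control asks whether the other mood stabiliser shifts these genes, with lithium libraries that did not serve to choose them and the 3 control libraries that did. Neither Ccnd1 nor Mcm7 passed the test. Ccnd1 differed by 0.03 ± 0.22 on the log2 scale (95% interval -0.45 to 0.52), a level between 0.732 and 1.43 times control, with an unadjusted p of 0.877 and an adjusted p of 1 in edgeR's quasi-likelihood test. Mcm7 differed by -0.07 ± 0.15 (-0.40 to 0.26), a level between 0.758 and 1.20 times control, with an unadjusted p of 0.646 and an adjusted p of 1 in the same edgeR test. The sign for Ccnd1 turned without control 2 (-0.14) or lithium 3 (-0.10). For Ccnd2 the groups held 3 and 2 counts, both at or under the floor, and no fold is given. Over all genes, 0 of 12719 were called (0%) by edgeR, 0 by DESeq2, and 116 (0.912%) had an unadjusted p under 0.05 in edgeR's test; 3.28% had lithium and control ranges that did not overlap, and none of the 3 genes was among them.

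Other cell cycle genes, from G1/S to mitosis and with regulators of D-type cyclins, were taken from 8 lists. These held 178 genes in all, of which 13 besides the 3 described had a name and enough counts. The authors named genes by p-value on these samples, so the counts say nothing about whole lists. With VPA, 6 of the 13 fell, 2 rose and 5 did not pass edgeR's test, where 2.99% of all genes tested were called lower and 5.71% higher; with lithium, 0 passed (0% of all genes). The VPA shares are not comparable, since a gene had to be in the authors' lists, mostly of VPA changes, to be among the 13. For lithium the median log2 change of the 13 was -0.05, with a range of -0.46 to 0.42, against 0.00 over all genes. Of 5 genes listed as D-type cyclins and their kinases, only Ccnd1 and Ccnd2 were named. The rest, kinase partners included, and the E-type cyclins were not analysed here by name. The summed reads of Ccnd1 and Ccnd2 therefore need not be all D-type cyclin reads.

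Among inhibitors of cyclin-dependent kinases, Cdkn1c rose and Cdkn2b fell. Cdkn1c, which encodes p57, was at 10.2, 10.1 and 12.9 CPM with VPA against 1.45, 2.82 and 2.58 CPM in control, a log2 change of 2.28 ± 0.30. Cdkn2b encodes p15, which blocks CDK4 and CDK6 and so acts on the partners of both cyclins. It was at 664, 636 and 444 CPM with VPA against 937, 1047 and 957 CPM in control (-0.75 ± 0.19). Its neighbour Cdkn2a, at 586 ± 112 CPM with VPA and 1037 ± 198 CPM in control (SD, n = 3 each), did not pass (-0.82 ± 0.25), except with the replicate block (-0.84), without lithium 2 (-0.83) and in other fits. Of 8 inhibitor genes listed, the 3 named moved in both directions. They were in the authors' lists, mostly of VPA changes, so nothing is read from this about the other inhibitor genes.

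In the retinoblastoma and E2F list of 16 genes, 3 had a name and enough counts. Their names came from the authors' lists, mostly of VPA changes, so nothing is read about the other listed genes. Among these 3, E2f2, an activating E2F factor, fell by 0.92 on the log2 scale (SE 0.19). It was at 20.7, 18.6 and 14.8 CPM with VPA against 37.5, 32.7 and 32.0 CPM in control. Tfdp1, the dimer partner of E2F factors, had 140.0 ± 4.83 CPM with VPA and 212 ± 43.8 CPM in control. Rb1, the retinoblastoma gene, had 71.7 ± 19.0 CPM with VPA and 38.8 ± 8.47 CPM in control (SD, n = 3 each). Neither passed (-0.60 ± 0.18 for Tfdp1 and 0.88 ± 0.27 for Rb1). Both passed with DESeq2. Tfdp1 also passed with the replicate block (-0.59) and without control 3 (-0.70). Rb1 also passed with no filter and without lithium 1 (0.88), and with the block only when VPA and control were fitted alone (0.87).

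In the helicase and origin-loading list of 32 genes, 3 had a name and enough counts. Names came from the authors' lists, mostly of VPA changes, so nothing is read about the other listed genes. No level is given here for the other subunits of the ring. The 3 named genes were all lower with VPA. Besides Mcm7 these were Cdt1, which loads the MCM ring on DNA, and Mcm9, of a helicase separate from the replicative ring. Cdt1 was at 106, 113 and 111 CPM with VPA against 154, 161 and 173 CPM in control (-0.56 ± 0.14). Mcm9 was at 17.3, 15.4 and 16.5 CPM with VPA against 28.4, 23.1 and 26.1 CPM in control (-0.66 ± 0.18). For both genes the groups did not overlap, as for 25.5% of all genes tested. Of the 10 of the 13 genes with a RefSeq promoter window, Cdt1 held TTTCGCGC. Of 37 genes listed for the replication fork and nucleotide supply, 1 was named and tested, the thymidine kinase gene Tk1. It fell by 0.98 (SE 0.19), with 106, 104 and 125 CPM with VPA against 173, 227 and 261 CPM in control. Cdc20, which activates the anaphase-promoting complex in mitosis, was 1 of 2 genes named and tested among 30 listed for G2 and mitosis. It fell by 0.85 (SE 0.21), with 103, 104 and 166 CPM with VPA against 189, 257 and 225 CPM in control.

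Several of these calls depended on the fit. Mcm9 was not called without any 1 library other than lithium 1 or control 2 (log2 -0.74 to -0.59 over the 9 such fits). Cdkn2b was not called without any 1 library other than lithium 1 or 3 (-0.86 to -0.59), nor Cdt1 other than lithium 1 or 2 (-0.61 to -0.51). Cdc20 was not called without VPA 1 (-0.73), VPA 2 (-0.74), control 2 (-0.75) or control 3 (-0.84). With VPA and control fitted alone, Mcm9, Cdkn2b, Cdt1 and Cdc20 were not called either. Mcm9 was also not called with scaling by totals (-0.62) or upper quartile (-0.63), nor Mcm9 and Cdt1 with no filter (-0.67 and -0.58). Tk1, E2f2, Cdkn1c and Lef1 were called in all 9 of these fits. Names came from the authors' lists, mostly of VPA changes in these same libraries. VPA calls kept or lost therefore describe the fits and are no test of the genes. Ccng1, a cyclin gene induced by p53, was the 1 of the 13 whose lithium and control ranges did not overlap (3.28% of all genes), at 649, 833 and 710 CPM with lithium against 513, 629 and 501 CPM in control; its log2 change of 0.42 ± 0.21 did not pass. Its VPA libraries held 622, 614 and 392 CPM and overlapped with control (-0.01 ± 0.21). Plk1, a mitotic kinase with a name in the authors' deposited Cufflinks table alone, was there at 39.3 FPKM with VPA and 61.9 FPKM in control.

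Of 38 genes listed as regulators of D-type cyclin transcription or stability, 2 were named and tested. Lef1, a Wnt pathway factor that can activate the Ccnd1 promoter, rose by 1.83 (SE 0.35). It was at 4.52, 4.18 and 6.43 CPM with VPA against 1.36, 0.868 and 1.96 CPM in control. Myc, a growth-promoting factor, was at 35.8, 43.5 and 15.3 CPM with VPA against 52.5, 64.0 and 63.6 CPM in control. It did not pass (-0.93 ± 0.32), except with the replicate block (-1.04) and with DESeq2 (-0.94). Klf4, named in the authors' deposited Cufflinks table alone, was there at 31.6 FPKM with VPA and 54.1 FPKM in control. Relative to Ccnd1, Lef1 moved in the opposite direction with VPA, and Myc and Klf4 in the same one. Whether any of them acts on Ccnd1 in these cells was not tested.

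**Figure D4:**
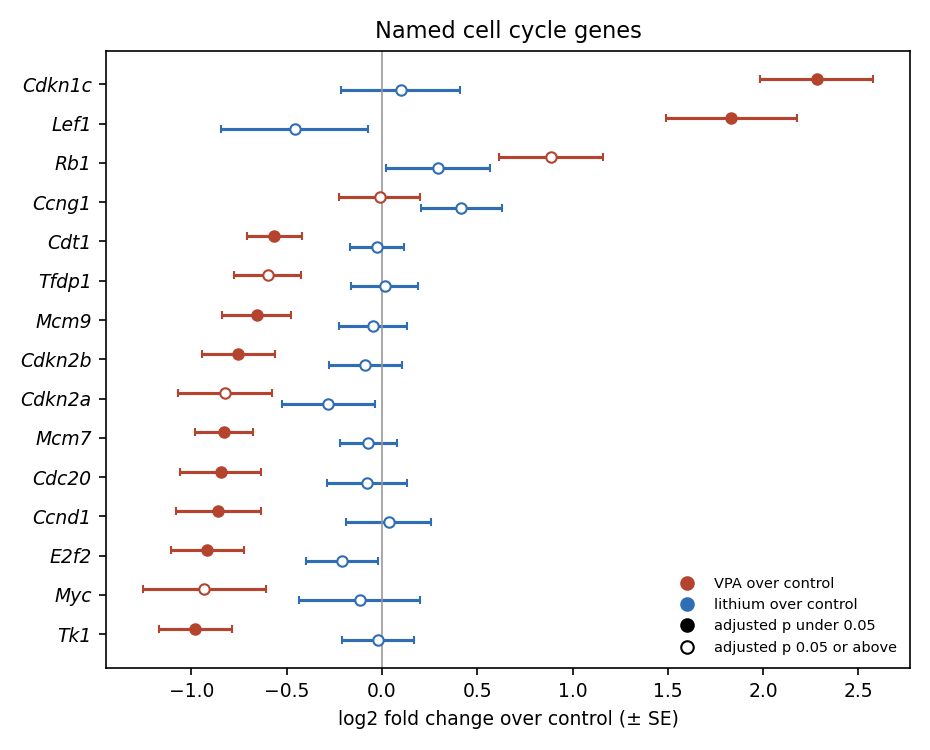
Log2 fold changes over control, with SE (horizontal axis), of 15 named cell cycle genes for VPA and for lithium, ordered by the VPA value; filled points passed an adjusted p under 0.05 over all genes. VPA values run from -0.98 for Tk1 to 2.28 for Cdkn1c, and every lithium point is open; Ccnd2 is not drawn, since its lithium and control counts are at or under the floor.

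The genes with patterns most like each of the 3 were found by Pearson's r of log2(CPM + 0.5) over the 9 libraries, among 836 or 837 named genes that averaged at least 5 CPM. They were Arhgap27 (r = 0.992), Brpf3 (0.989) and Parva (0.981) for Ccnd1. For Mcm7 they were Tapbpl (0.994), Igfbp4 (0.992) and Mxra8 (0.992). For Ccnd2 they were Emb (0.987), Pawr (0.983) and Syt1 (0.981). Ccnd1 itself had r = 0.864 with Mcm7 and -0.858 with Ccnd2. The groups differ for all these genes, so r mostly restates the step between VPA and the other libraries.

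Named markers of cell state also differed between VPA and the other groups. Names came from the authors' lists, mostly of VPA changes, so a VPA difference was largely fixed by the naming. The sums below do not stand for the whole marker lists. The summed level of 8 named pan-neuronal markers, of 16 listed, was 175 to 207 CPM with VPA, 51.9 to 67.3 CPM with lithium and 50.3 to 64.0 CPM in control. That of 6 of 10 fibroblast and mesenchymal markers was 470.5 to 741 CPM with VPA, 1212 to 2667 CPM with lithium and 1812 to 3644 CPM in control, with Lum at 0 in all 3 VPA libraries and 1 lithium library. S100a4 made up most of that sum, and Pdgfra went the other way, at 8.04, 6.96 and 9.64 CPM with VPA against 6.62, 4.02 and 5.24 CPM in control, without passing the test. That of 4 of 7 neural crest and Schwann cell markers was 55.9 to 65.1 CPM with VPA, 14.4 to 15.9 CPM with lithium and 11.1 to 16.9 CPM in control. Erbb3 and Ngfr carried that sum, while S100b fell, with a log2 change of -1.28 and at most 1.87 CPM with VPA against 3.26 to 4.54 CPM in control. Cd68, 1 of 4 microglia and leucocyte markers, was at 23.3 to 41.3 CPM with VPA, 12.0 to 20.9 CPM with lithium and 8.53 to 14.2 CPM in control. None of 4 astrocyte markers had a name. The part of these shifts in the levels of Ccnd1, Ccnd2 and Mcm7 was not tested.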

How the data were processed

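The authors deposited raw counts per Ensembl gene for 9 libraries, with 0 lines naming no gene; HTSeq is per the table's title. The submitters' processing notes list CASAVA 1.8, STAR 2.5.1, Salmon 0.6.1, DESeq2, sleuth, kallisto 0.42.4 and Cufflinks 2.2.1 but no roles, and no build or annotation was found in the sources used here. A deposited table titled for kallisto repeats the DESeq2 table and was not used. Per the file headers, the authors' deposited tables also give log2 fold changes, mean normalized counts (a signal), p-values and q-values, and FPKM per group. The authors' deposited Salmon and sleuth table holds effects on the natural log scale; the scale was read from the data, its values being 0.697 times those of Cufflinks (log2) at the median.

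Counts were filtered with filterByExpr (minimum count 10), scaled by TMM and fitted with edgeR 4.0.16 (R 4.3.3), using robust quasi-likelihood dispersions and 1 mean per group across the 9 libraries; tests were two-sided, with Benjamini-Hochberg adjustment over 12719 genes. The biological coefficient of variation was 0.22. On simulated counts for VPA against control (12563 genes), 100 of 100 genes changed 4-fold and 57 of 100 changed 2-fold were recovered. Libraries of 1 group differed beyond counting noise (chi-square per degree of freedom 27.0 to 68.3). Same-numbered VPA and control libraries deviated together (correlations 0.605, 0.532 and 0.526 over 10288 genes). Their title numbers were therefore taken as pairs in the same-numbered differences and in the replicate block. The main fit used no pairing, so its SEs and calls for VPA leave the pairs out. The title numbers of lithium were not taken as pairs. Exact intervals used SciPy 1.17.1. A planned permutation test of the lithium Ccnd2 to Ccnd1 ratio is not reported, since its Ccnd2 counts lie under the floor of 3.

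The genes, lists and tests were chosen with earlier results of these data known. Named genes were the 3 chosen, members of the lists called in a comparison (at most 6 per list by p) and 3 like-patterned genes for each; Rb1, Tfdp1, Cdkn2a, Ccng1, Myc, Plk1 and Klf4 were added after their values were seen. Alternatives were scaling by median ratio, upper quartile or totals, a filter of 1 CPM in 3 libraries or none, DESeq2 1.42.0, the replicate block, the 2 groups alone and each library left out; the block on 2 groups alone was added after seeing the data.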

Additional observations from a re-analysis of the deposited data

How the results depend on the processing

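Over all scalings, filters and tools, Ccnd1 and Mcm7 were lower and Ccnd2 higher with VPA than in control. Of the 3, Ccnd1 lost its call against control, with VPA and control fitted alone (-0.87) and without single libraries; against lithium, Ccnd1 and Mcm7 lost theirs without single libraries. VPA against control chose the 3 genes, and VPA against lithium shares its VPA libraries. Calls kept or lost there describe the fits and are no test of the genes. With the replicate block the calls numbered 1741 for VPA against control (1075 higher, 666 lower; 1106 without it) and 1609 for VPA against lithium (1009 without it), and 2408 for VPA against control when these were fitted by themselves with the block, a fit chosen after seeing the data. Leaving out 1 library gave 638 to 1026 calls for VPA against control and 544 to 1197 for VPA against lithium. For lithium against control 0 genes were called in every fit; without 1 library Ccnd1 ran from -0.14 to 0.23 (log2) and Mcm7 from -0.13 to -0.01. Added to the fit of 9 libraries, the block changed no call of the 3 genes; with VPA and control alone it restored that of Ccnd1 (-0.84). Of the same-numbered lithium and control libraries, only those numbered 3 deviated together (correlation 0.804, against -0.42 for 1 and -0.0808 for 2). Lithium 1 correlated best with control 2 (0.684) and lithium 2 with control 1 (0.65). The VPA libraries gave the same match: VPA 1 went best with lithium 2 (0.520), VPA 2 with lithium 1 (0.295) and VPA 3 with lithium 3 (0.537). The lithium test above used no pairing, and a fit with this match was not run. The block's lithium values, the 1609 calls and the 1318 with VPA and lithium alone, therefore rest on a shared number, not on a known pairing. The Ccnd2 to Ccnd1 ratio for VPA moved to 7.12 with 0.1 added to counts and was 4.79 with 1 added, since control counts are mostly 0. Without 1 library it ran from 4.90 to 6.26, and for lithium from -0.33 to 1.02. The cause of the other shifts was not tested. Ccng1 with VPA, near 0, turned sign with scaling by totals (0.0308) or upper quartile (0.0121), and ran from -0.12 to 0.17 without 1 library. Depth limits Ccnd2 outside the VPA libraries.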
